A study of Mus musculus with 14 samples.

Results

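The genes described here are the mouse keratins, the late cornified envelope (Lce) genes and the small proline-rich (Sprr) genes, with Crct1 and Kprp, as counted in primary hippocampal cultures. Every gene of the count tables whose symbol is Krt, Lce or Sprr followed by a digit was taken, together with Crct1 and Kprp. Pseudogenes marked -ps in their symbol were dropped, which removed 2 genes with 0 counts. This gave 92 of the 43629 gene identifiers in each table. The 92 are 28 type I and 26 type II keratins, 21 Lce genes, 15 Sprr genes, Crct1 and Kprp.

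The cultures came from wild-type C57BL6 mice of postnatal day 0 to 1 and were kept for 14 days in vitro. The CTRL group (4 libraries) received 0.1% DMSO, the solvent, for 15 h. The PTX group (4 libraries) received 100 µM picrotoxin, which blocks GABA-A receptors, for 15 h. A culture of this kind holds neurons, glia and other cells of the dissected tissue, so in these bulk libraries a change in the number of cells of a type and a change in RNA per cell cannot be told apart. ChIP-seq for the chromatin reader L3mbtl1 from wild-type and L3mbtl1-/- hippocampus of postnatal day 7 to 8 (3 samples each), deposited as 1 peak list, was used for 1 comparison. The libraries are named CTRL1 to CTRL4 and PTX1 to PTX4 after the replicate number in their titles.

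Keratins are the intermediate filament proteins of epithelial cells. A type I keratin pairs with a type II keratin to build the filament, and each kind of epithelium uses its own pairs. In the upper epidermis the dying keratinocyte is sealed by a cornified envelope, in which transglutaminases crosslink precursor proteins, among them those of the Lce and Sprr families. The Lce, Sprr, Crct1 and Kprp genes lie together in the epidermal differentiation complex. Neurons and astrocytes build their intermediate filaments from other families, such as neurofilaments and GFAP.

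The neuron, astrocyte and other marker lists describe the tissue. The libraries held 14524916 to 19498189 gene counts. All 9 neuron markers and all 7 astrocyte markers had counts, at a summed 4447 to 6720 CPM (counts scaled to a library of fixed size) and 4344 to 8066 CPM. Of the neuron markers 4 rose and 4 fell under picrotoxin, and of the astrocyte markers 4 fell. The 7 microglia markers summed to 12.1 to 62.4 CPM in CTRL and 17.6 to 98.9 CPM in PTX. Of the microglia and ependyma markers 0 were called, and of the meningeal fibroblast markers Fn1 rose. With the replicate number as a block, 2 microglia markers rose. In that fit 1 marker rose and 4 fell in each of the ependyma and meningeal fibroblast lists. The 11 meningeal fibroblast markers were highest in the libraries numbered 1 (785 CPM in CTRL1 and 706.2 CPM in PTX1, against 188.2 to 279.7 CPM in the other 6). The 8 ependyma markers summed to 41.1 to 198.7 CPM and the 5 mesothelium markers found in the tables to 1.15 to 3.77 CPM, of which Msln fell.

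Most of the 92 genes were close to silent. Any count at all was found for 57 genes (62.0%) and none for 35, while 67.3% of all gene identifiers had a count. In the CTRL libraries 34 had a count and in the PTX libraries 51, with 23 seen in PTX alone and 6 in CTRL alone. Over all genes, 22513 to 22847 had a count in a CTRL library and 22750 to 23535 in a PTX library. The share of all genes seen in 1 group alone was not computed, so these 2 numbers have no background. Of the 57 genes, 31 had 1 to 10 counts over all 8 libraries, and 15 passed the filter on low counts and were tested. Of these 15, 8 rose, 3 fell and 4 did not pass the test (edgeR quasi-likelihood test, adjusted p under 0.05 over 15959 genes). Over all tested genes 39.2% were called, 19% as rises and 20.1% as falls. With the replicate number as a block the same numbers of these genes rose (8) and fell (3), against 25.7% and 29.6% of all tested genes. The groups did not overlap in 7 of the 8 rises and in all 3 falls, which over all tested genes was so for 18.4% with PTX above and 19.5% with PTX below. Among the genes that rose, 5 of the 8 had at most 3 counts over the CTRL libraries. A gene that low in CTRL passes the filter only through PTX and so had to differ, as all 35 such genes of the whole table did. Krt6a (3 to 5 counts in each CTRL library) and Lce1g (1 or 2) also passed the filter only through PTX, which fixed their direction. The 8 rises and the 7 without overlap therefore cannot be set against the shares over all tested genes.

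The silent genes were spread over the Lce, Sprr and keratin families. The 35 genes without a count were 9 Lce genes (Lce1a1, Lce1b, Lce1c, Lce1d, Lce1e, Lce1j, Lce3b, Lce3e and Lce3f), 8 Sprr genes (Sprr1b, Sprr2a1, Sprr2a2, Sprr2b, Sprr2d, Sprr2f, Sprr3 and Sprr4), 7 type I keratins (Krt23, Krt26, Krt27, Krt31, Krt33a, Krt34 and Krt40) and 11 type II keratins (Krt4, Krt71, Krt72, Krt74, Krt76, Krt79, Krt81, Krt82, Krt83, Krt86 and Krt88). Of the 15 hair keratins, which form the hair shaft, 8 were silent and the other 7 had 8 counts in CTRL and 11 in PTX in all. The count tables hold reads with several alignments apart, as 15.2% to 20.5% of each library, so a count of 0 in a gene with near-identical copies does not show that it was unread. For a gene without such copies, a count of 0 over 4 libraries allows up to about 3 counts, for counting error only.

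Krt6a (ENSMUSG00000058354, mm10 chromosome 15, 101689928 to 101694305), a type II keratin induced in epidermis by wounding, held 70.5% of all counts of these genes in the PTX libraries. Its level was 0.295, 0.281, 0.15 and 0.327 CPM in CTRL1 to CTRL4 and 401.4, 135.8, 342.6 and 227.7 CPM in PTX1 to PTX4. Every PTX library stood far above every CTRL library, PTX2 being the lowest of the 4. The 18 CTRL counts and 17314 PTX counts gave a ratio of 1060 between the groups (log2 fold change 10.03, SE 0.47, edgeR adjusted p = 6.61e-07). The other stress-induced keratins did not reach such counts. Krt6b, the close copy of Krt6a, had 0 counts in CTRL and 39 in PTX, and the type I keratins Krt16 and Krt17, with which Krt6 proteins pair in epidermis, had 0 and 1 counts in CTRL and 5 and 6 in PTX. Reads that align to both Krt6a and Krt6b are not counted for either, so the counts of this pair are uncertain.

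Krt75 (ENSMUSG00000022986, chromosome 15, 101563343 to 101573904), a type II keratin of the hair follicle's companion layer, rose as well. It had 0 counts in every CTRL library and 27, 15, 29 and 28 counts in PTX1 to PTX4 (1.72, 0.885, 2 and 1.7 CPM). The groups did not overlap, and PTX was at least 36.4-fold higher against a floor of 3 counts over the CTRL group (edgeR adjusted p = 0.000219). Krt75 passed the filter only through PTX and so had to differ in this direction. Krt5, the basal type II keratin of stratified epithelia, was too low for the filter, with 0 counts in CTRL and 35 in PTX. Its type I partner Krt14 had 9 counts in CTRL and 1 in PTX. That was also too low for the filter, and without a filter Krt14 was not called (edgeR adjusted p = 0.144).

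Krt12 (ENSMUSG00000020912, chromosome 11, 99415664 to 99422593), the type I keratin of the cornea, was called as a rise with groups that overlapped. Its level was 1.12, 1.4, 0.3 and 0.588 CPM in CTRL1 to CTRL4 and 2.49, 2.77, 1.59 and 1.4 CPM in PTX1 to PTX4 (log2 fold change 1.27, SE 0.44, edgeR adjusted p = 0.042). The call was lost in 5 of 8 fits that leave out 1 library (without CTRL3, CTRL4, PTX1, PTX2 or PTX3) and without both libraries numbered 1, with edgeR adjusted p from 0.00108 to 0.104 over all alternatives. The long noncoding gene A830036E02Rik overlaps Krt12 by 5351 bases on the other strand and also rose, from 9.63 to 21.9 CPM (edgeR adjusted p = 0.023). The strand setting of the counting is not given in the sources used here, so the reads of the pair cannot be told apart.

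**Figure D1:**
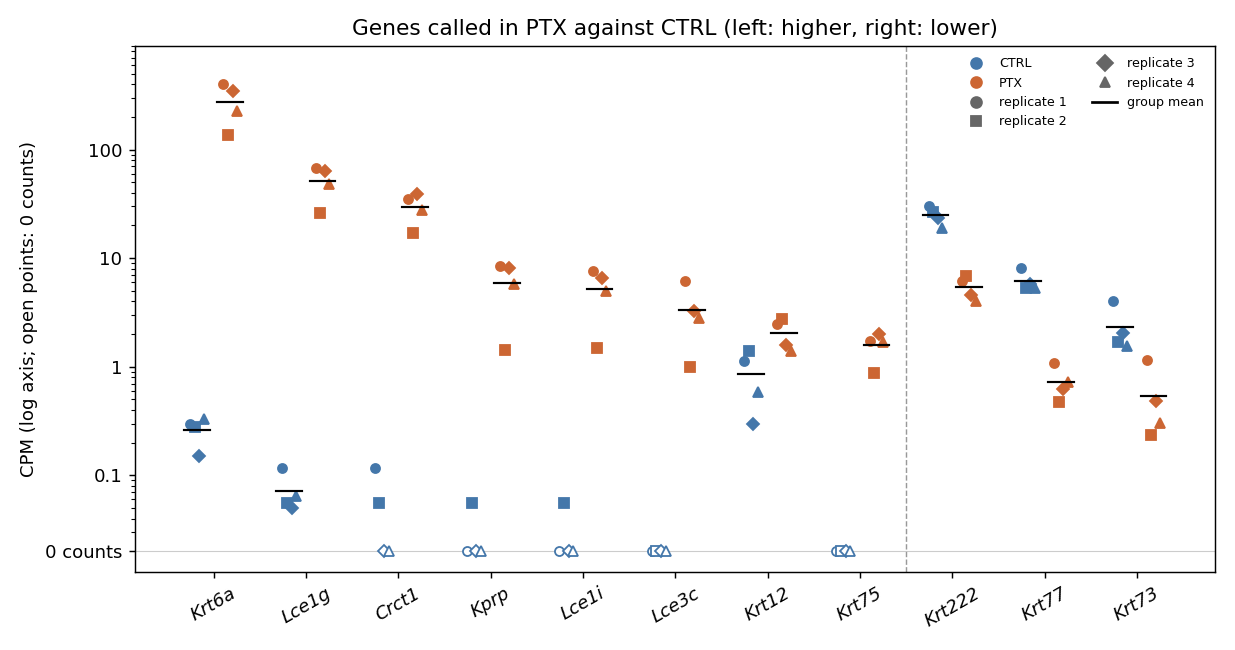
CPM of the 11 called genes in each library on a log axis, with CTRL in blue, PTX in orange, 1 symbol per replicate number, open points for libraries with 0 counts and a black bar for the mean of a group whose 4 libraries all had counts. Of the 8 genes left of the dashed line 7 had every PTX library above every CTRL library, Krt12 being the exception, and all 3 genes right of it had every PTX library below every CTRL library.

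Crct1 and Kprp, both of the epidermal differentiation complex, rose. Crct1 (ENSMUSG00000027913, chromosome 3, 93014205 to 93015686), named for its cysteine-rich C terminus, had 2, 1, 0 and 0 counts in CTRL1 to CTRL4 and 548, 290, 562 and 455 counts in PTX1 to PTX4. Kprp (ENSMUSG00000059832, chromosome 3, 92823074 to 92827247), the keratinocyte proline-rich protein, had 1 count in CTRL2, 0 in the other CTRL libraries, and 133, 24, 117 and 95 counts in PTX1 to PTX4. The groups did not overlap for either gene. With 3 and 1 counts over the CTRL libraries, both passed the filter only through PTX and so had to differ in this direction. The PTX to CTRL ratio was 681.6 for Crct1 (exact binomial 95% interval 232.9 to 3308, edgeR adjusted p = 1.42e-06) and 406.7 for Kprp (72.5 to 16110, edgeR adjusted p = 7.56e-05), with intervals that cover counting error only.

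Of the 21 Lce genes, 12 had counts, 10 of them in PTX alone, and the family summed to 6 counts in CTRL and 3886 in PTX. The 3 that were tested, Lce1g, Lce1i and Lce3c, all rose. With 5, 1 and 0 counts over the CTRL libraries they passed the filter only through PTX, so their direction was fixed in advance. Lce1g (ENSMUSG00000027919, chromosome 3, 92750151 to 92752338) stood at 0.118, 0.056, 0.05 and 0.065 CPM in CTRL1 to CTRL4 and at 67.97, 25.9, 62.9 and 47.7 CPM in PTX1 to PTX4, a ratio of 706.3 (edgeR adjusted p = 9.9e-07). All CTRL libraries of Lce1g held 1 or 2 counts and the PTX libraries 440 to 1065. Lce1i (ENSMUSG00000068888, chromosome 3, 92777210 to 92778899) had 1 count in CTRL2, none in the other CTRL libraries, and 120, 25, 96 and 82 counts in PTX1 to PTX4, a ratio of 356 (exact binomial 95% interval 63.4 to 14110, edgeR adjusted p = 5.95e-05). Lce3c (ENSMUSG00000045475, chromosome 3, 92944486 to 92945730), of the Lce3 group induced when the skin barrier is broken, had 0 counts in CTRL and 97, 17, 47 and 46 in PTX1 to PTX4, at least 76.1-fold higher (edgeR adjusted p = 0.000916). For both genes every PTX library was above every CTRL library, and PTX2 was again the lowest.

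Lce1h (chromosome 3, 92763215 to 92765065), which lies between Lce1g and Lce1i, did not pass the filter. It had 0 counts in CTRL and 31, 4, 35 and 31 counts in PTX1 to PTX4, at least 37.1-fold higher. Without a filter it was called (edgeR adjusted p = 0.000105). The remaining Lce genes were at 11 counts or fewer in all, with Lce3d and Lce1l at 11 each.

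The Sprr family, whose proteins crosslink the envelope, was low in both groups. It summed to 2 counts in CTRL and 88 in PTX, and 0 of its 15 genes reached the filter. Sprr2g, listed as a transcribed pseudogene by RefSeq, held most of these, with 0 counts in CTRL and 28, 10, 9 and 17 in PTX1 to PTX4. This was at least 23.5-fold higher, and without a filter Sprr2g was called (edgeR adjusted p = 6.83e-05). Sprr1a, which is also known from injured neurons, had 1 count in CTRL and 15 in PTX. Sprr2i had 0 and 6 counts, and no other Sprr gene had more than 1.

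With every gene of at least 1 count admitted to the fit, 19 of the 57 rose and 4 fell. Over all 29379 genes then fitted, 10.4% rose and 10.5% fell. The 23 genes seen in PTX alone could only rise and the 6 seen in CTRL alone could only fall. The 19 rises therefore cannot be set against the share over all genes. No call was lost, and 11 rises were added. These were Lce1h, Sprr2g, Krt6b, Krt5, Krt42, Sprr1a, Lce3d, Lce1l, Lce1f, Lce1m and Krt39, with 8 to 101 counts in PTX and at most 1 in CTRL. The added fall was Krt2, a keratin of the upper epidermis (25 counts in CTRL and 2 in PTX, edgeR adjusted p = 0.00696).

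On chromosome 3 the selected genes span 803.2 kb from Sprr2a1 to Lce1m. The 5 that rose lie between 534.3 kb (Lce1g) and 798.4 kb (Crct1) from the start of Sprr2a1, with silent genes among them. From left to right, Lce1e had 0 counts, Lce1f 9 in PTX, Lce1g 3204, Lce1h 101, Lce1i 323, Lce1j 0, Lce1k 3, Kprp 369 and Lce1l 11. Further right, Lce3c with 207 counts stood between Lce3b with 0 and Lce3d with 11, and Crct1 with 1855 lay next to Lce1m with 9. Of the 3 other coding genes inside the span, Ivl, which encodes the envelope precursor involucrin, had 0 counts in CTRL and 2 in PTX, and Smcp and 2310050C09Rik had 0.

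On chromosome 15 the type II keratins Krt75, Krt6b, Krt6a and Krt5 follow each other, with 1 other coding gene among them, Gm5414 (0 counts in CTRL and 18 in PTX). Each of the 4 had at least 35 counts in PTX and at most 18 in CTRL. On their left lies Krt90, with 11 counts in CTRL and 18 in PTX. The next genes on the right, Krt71, Krt74 and Krt72, were silent. Beyond them lie Krt73, Krt2, Krt1 and Krt77, of which Krt73 and Krt77 fell. Counts are not corrected for gene length here, so they order the libraries of a gene and not the genes.

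**Figure D2:**
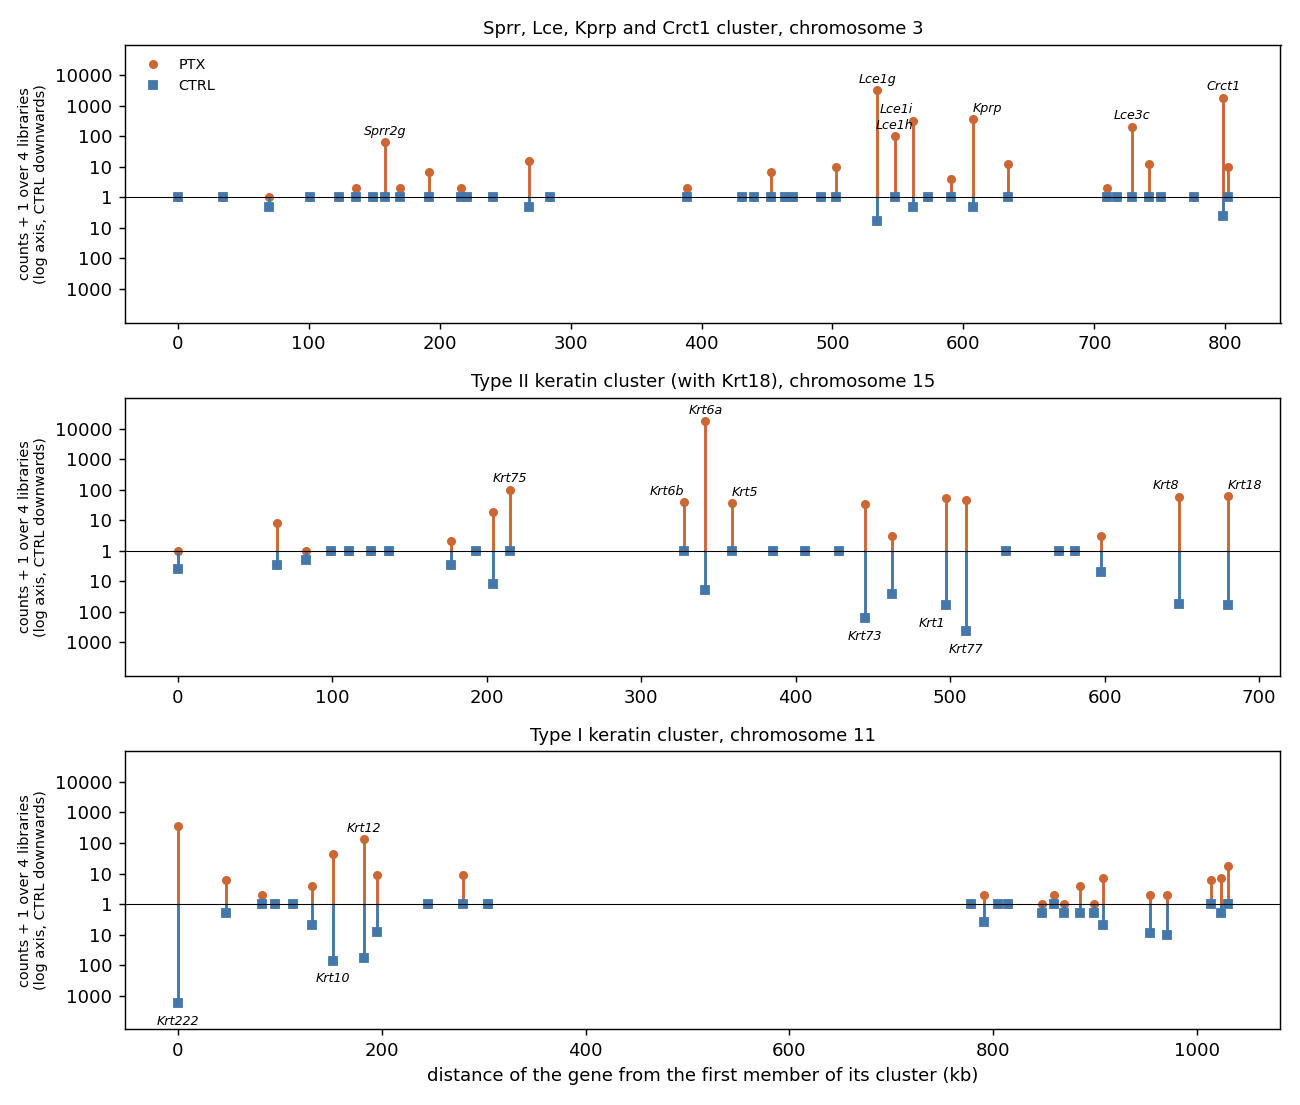
Counts summed over the 4 PTX libraries (orange, upwards) and the 4 CTRL libraries (blue, downwards) for each gene, on a log axis of counts + 1, against the distance of the gene from the first of its cluster in kb. Krt75, Krt6b, Krt6a and Krt5 stand together on chromosome 15 and Lce1g, Lce1h and Lce1i on chromosome 3, with silent genes to the right of each set (Krt71 and Lce1j).

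The promoters of Lce1g, Lce1h, Lce1i and Lce1j are shown because the first 3 genes had counts in PTX and the fourth, their direct neighbour, was silent. The promoter of Sprr1a is shown because it carries AP-1 letters. The sequences run 5′ to 3′ from 250 bases before to 50 bases after the gene's start (RefSeq, GRCm38.p6). Lce1g lies at chr3:92752289-92752588, Lce1h at chr3:92765016-92765315, Lce1i at chr3:92778850-92779149, Lce1j at chr3:92790465-92790764 and Sprr1a at chr3:92485832-92486131, all on the minus strand. Capitals mark TGANTCA, the letters bound by AP-1 factors, and TATAAA or ATAAAA, 2 spellings of a TATA box.
Lce1g: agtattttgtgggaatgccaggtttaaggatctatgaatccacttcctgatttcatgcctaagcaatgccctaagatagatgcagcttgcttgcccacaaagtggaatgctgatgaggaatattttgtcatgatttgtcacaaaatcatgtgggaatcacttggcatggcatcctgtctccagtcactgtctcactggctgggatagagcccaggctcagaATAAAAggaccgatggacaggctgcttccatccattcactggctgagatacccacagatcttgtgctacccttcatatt
Lce1h: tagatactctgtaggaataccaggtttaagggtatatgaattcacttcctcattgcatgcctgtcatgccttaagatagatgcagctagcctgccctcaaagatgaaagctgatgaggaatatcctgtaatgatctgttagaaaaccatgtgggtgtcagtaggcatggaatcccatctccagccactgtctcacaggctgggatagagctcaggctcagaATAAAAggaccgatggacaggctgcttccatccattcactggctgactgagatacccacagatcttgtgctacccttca
Lce1i: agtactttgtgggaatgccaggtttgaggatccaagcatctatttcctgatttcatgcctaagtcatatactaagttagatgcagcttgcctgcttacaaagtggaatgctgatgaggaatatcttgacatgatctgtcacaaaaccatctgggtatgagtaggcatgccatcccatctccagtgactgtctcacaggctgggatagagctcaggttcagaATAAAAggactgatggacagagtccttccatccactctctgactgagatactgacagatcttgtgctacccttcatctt
Lce1j: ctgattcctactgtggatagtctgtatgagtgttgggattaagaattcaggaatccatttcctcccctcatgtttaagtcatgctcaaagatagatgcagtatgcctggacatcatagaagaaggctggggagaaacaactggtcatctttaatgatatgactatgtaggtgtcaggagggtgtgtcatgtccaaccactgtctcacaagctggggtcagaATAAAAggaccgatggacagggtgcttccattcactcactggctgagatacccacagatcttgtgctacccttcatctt
Sprr1a: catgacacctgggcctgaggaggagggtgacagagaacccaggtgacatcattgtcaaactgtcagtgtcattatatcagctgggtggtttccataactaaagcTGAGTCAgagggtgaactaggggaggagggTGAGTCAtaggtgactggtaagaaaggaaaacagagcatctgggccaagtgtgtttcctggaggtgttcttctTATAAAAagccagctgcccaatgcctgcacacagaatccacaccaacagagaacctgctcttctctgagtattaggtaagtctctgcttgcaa

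In a global alignment the promoters of Lce1g, Lce1h and Lce1i were 80.7% to 86% identical to each other. The promoter of Lce1j was 65.8% to 67.5% identical to these 3. The promoter of Lce1e, another silent gene, was 77.4% to 79.7% identical to them and 68.7% to that of Lce1j. That of Lce1c, also silent, was 69.1% to 70.8% identical to Lce1g, Lce1h and Lce1i. Those of Lce1k, Lce1l and Lce1m, which had 3 to 11 counts in PTX, were 44.7% to 55.8% identical to them. The promoters of Lce1e, Lce1g, Lce1h, Lce1i and Lce1j all hold ATAAAA, beginning 29 bases before the start.

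A promoter was found for 70 of the 92 genes, among them 5 of the 8 that rose (Krt12, Krt75, Lce1g, Lce1i and Lce3c) and 2 of the 3 that fell (Krt73 and Krt77). Krt6a, Crct1, Kprp and Krt222 had no entry. TGANTCA, searched on both strands, was in a promoter of 10 of the 70 genes and in 7.81% of all 32851 promoters. It was in 0 of the 7 called genes. A gene with several promoters, such as Krt13, counts once among the 70, so genes are set against single promoters here. The 10 were Krt13 and 9 Sprr genes (Sprr1a, Sprr1b, Sprr2b, Sprr2d, Sprr2e, Sprr2f, Sprr2h, Sprr2i and Sprr2k), of which 4 were silent and Sprr1a had the most counts in PTX. In Sprr1a the 2 matches begin 146 and 116 bases before the start. TGACGTCA, the full cyclic AMP response element, was in 0 of the 70 and in 1.79% of all promoters. TATAAA was in 33 of the 70 and 13.6% of all promoters, and ATAAAA, searched after the sequences had been seen and overlapping TATAAA in part, in 48 of the 70 and 18.5%. These are matches of letters in a window of 300 bases and were not tested as binding sites.

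The PTX libraries differed in how far these genes were up. PTX2 was the lowest PTX library in 7 of the 8, Krt12 being the exception. Over all 3034 genes that rose, PTX2 was the lowest in 42.9%, and over the 35 with at most 3 CTRL counts in 71.4%. Relative to Krt6a in the same library, the counts of Lce1g were 16.93% to 20.95% in the 4 PTX libraries and those of Crct1 8.71% to 12.6%. For Kprp and Lce1i the share was lowest in PTX2, at 1.04% and 1.09%, against 1.91% to 2.53% in the others. For Lce3c it was also lowest in PTX2, at 0.739% against 0.946% to 1.54%. For Krt75 it was lowest in PTX1, at 0.429%, and for Crct1 it was lowest in PTX1 and highest in PTX2. Summed over all 92 genes the level was 32.3 to 52 CPM in CTRL and 198.9 CPM in PTX2 to 554.4 CPM in PTX1.

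The keratins that fell were Krt222, Krt77 and Krt73. Krt222 (ENSMUSG00000035849, chromosome 11, 99232761 to 99244147), a keratin-like type I gene, stood at 30.1, 26.5, 23.3 and 19.1 CPM in CTRL1 to CTRL4 and at 6.13, 6.84, 4.62 and 4.07 CPM in PTX1 to PTX4. It accounted for 1742 of the 2758 counts of the 92 genes in CTRL. The groups did not overlap and the fall was 4.57-fold (log2 fold change -2.19, SE 0.20, edgeR adjusted p = 2.27e-05).

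Krt77 (ENSMUSG00000067594, chromosome 15, 101858731 to 101869706), a type II keratin known from sweat gland ducts, stood at 8.2, 5.27, 5.79 and 5.29 CPM in CTRL1 to CTRL4 and at 1.08, 0.472, 0.62 and 0.728 CPM in PTX1 to PTX4. It fell 8.48-fold with no overlap (log2 fold change -3.07, SE 0.28, edgeR adjusted p = 2.45e-05). Krt73 (ENSMUSG00000063661, chromosome 15, 101793304 to 101802360), a type II keratin of the inner root sheath of the hair, stood at 4.07, 1.68, 2.05 and 1.57 CPM in CTRL1 to CTRL4 and at 1.15, 0.236, 0.483 and 0.303 CPM in PTX1 to PTX4. It fell 4.38-fold (log2 fold change -2.11, SE 0.51, edgeR adjusted p = 0.00798), and the highest PTX library lay below the lowest CTRL library.

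The suprabasal pair of the epidermis, Krt1 and Krt10, did not pass the test. Krt1, the type II partner, was at 0.649, 0.617, 1.05 and 1.18 CPM in CTRL1 to CTRL4 and 0.702, 0.885, 0.689 and 1.03 CPM in PTX1 to PTX4 (log2 fold change -0.07, SE 0.31, edgeR adjusted p = 0.885). Krt10, the type I partner, was at 0.708, 1.12, 1.35 and 0.719 CPM in CTRL1 to CTRL4 and 0.702, 0.531, 0.965 and 0.607 CPM in PTX1 to PTX4 (log2 fold change -0.49, SE 0.33, edgeR adjusted p = 0.268). The groups of both genes overlapped.

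Krt8 and Krt18, the type II and type I keratins that pair in simple, single-layered epithelia, followed the replicate number and not the treatment. Krt8 was at 2.24, 0.056, 0.05 and 0.98 CPM in CTRL1 to CTRL4 and 2.23, 0.059, 0.069 and 1.27 CPM in PTX1 to PTX4. Krt18 was at 2.06, 0.056, 0.05 and 1.37 CPM in CTRL1 to CTRL4 and 1.85, 0.059, 0.069 and 1.76 CPM in PTX1 to PTX4. In each group the libraries numbered 1 and 4 held 15 to 38 counts of each gene and those numbered 2 and 3 held 1 count. Between the groups neither passed the test (edgeR adjusted p = 0.927 for Krt8 and 0.946 for Krt18).

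The choroid plexus, a simple epithelium of the brain ventricles, is known to express this pair. The sum of its markers, though not each marker, split the libraries in the same way. The 10 markers summed to 658.9, 30.9, 27.3 and 505.8 CPM in CTRL1 to CTRL4 and 568.7, 30.7, 22.9 and 434.5 CPM in PTX1 to PTX4, and all 10 had counts, with 6 tested and 0 called (edgeR; 0 at an unadjusted p under 0.05 and 0 with DESeq2). Most of this was Ttr, which encodes transthyretin (635.6, 10.2, 9.24 and 475.8 CPM in CTRL1 to CTRL4). With the replicate number as a block Ttr was called as a fall (log2 fold change -0.28, edgeR adjusted p = 0.0323), the 1 call of the list in that fit. In 6 of the 10 (Ttr, Clic6, Kcne2, Aqp1, Cldn2 and Slc4a5) the libraries numbered 1 and 4 lay above those numbered 2 and 3 in both groups. Folr1, Otx2, Kl and Kcnj13 did not follow that order. In Otx2 the libraries numbered 2 and 3 lay above those numbered 1 and 4 in both groups. The ependyma list held 0 genes with libraries 1 and 4 above 2 and 3 in both groups, and the mesothelium list 0. Of the other lists described here, the desmosome list held 2 (Jup and Perp). The general epithelial (Cldn1), hemidesmosome (Dst), meningeal fibroblast (Fn1) and keratinocyte (Perp) lists held 1 each. The share of all genes with that order was not computed. The part of these cells in the Krt8 and Krt18 counts was not tested. The remaining simple epithelial keratins, Krt7, Krt19 and Krt20, had 9, 10 and 15 counts in all and did not pass the filter.

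**Figure D3:**
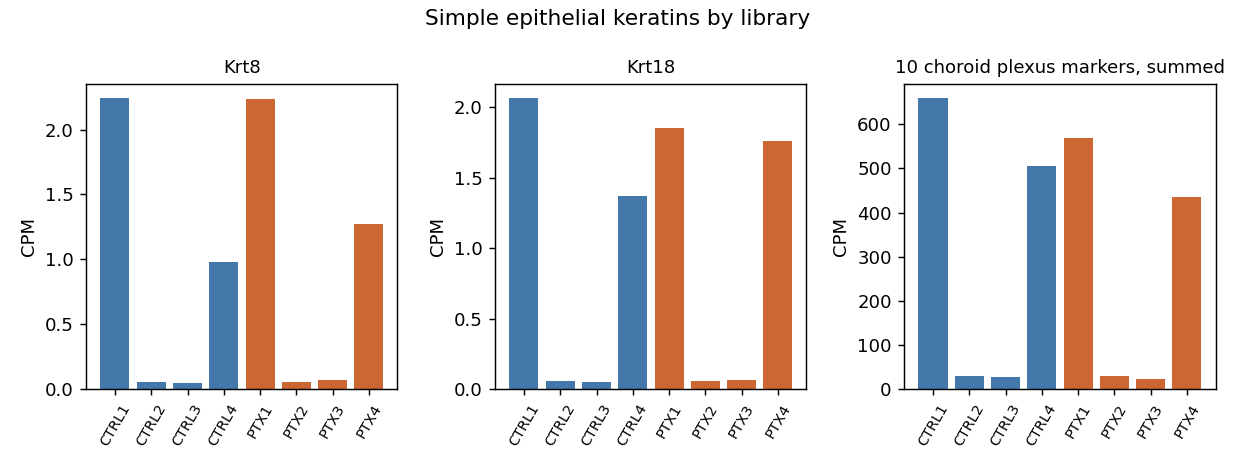
CPM of Krt8, of Krt18 and of the 10 choroid plexus markers summed, 1 bar per library, with CTRL in blue and PTX in orange. Libraries numbered 1 and 4 are high and those numbered 2 and 3 are low in both groups and in all 3 panels.

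Other markers of keratinocytes were low. The 12 keratinocyte markers outside the keratin, Lce and Sprr families all had counts and summed to 15.2 to 16.5 CPM in CTRL and 13 to 14.4 CPM in PTX. Of the 6 that were tested, 0 rose (edgeR; 0 at an unadjusted p under 0.05 and 0 with DESeq2) and 1, the desmosome plaque gene Dsp, fell. Trp63, the master regulator of stratified epithelia, had a mean level of 0.983 ± 0.215 CPM without and 0.664 ± 0.435 CPM with picrotoxin (SD over 4 libraries), and did not pass (edgeR adjusted p = 0.29). The other 6 were too low to test. Among them the envelope genes Lor, Ivl and Flg had 20, 0 and 1 counts in CTRL and 9, 2 and 13 in PTX, and the hemidesmosome gene Col17a1 had 20 and 30, with every PTX library above every CTRL library for Flg and Col17a1.

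Among 27 other genes of the cornified envelope and skin barrier, 24 had counts, 9 were tested, 3 rose and 2 fell. Aloxe3, a lipoxygenase of barrier lipid synthesis, rose 12.4-fold (2.59 ± 0.48 CPM in CTRL, 32.6 ± 11.6 in PTX, mean ± SD over 4 libraries, edgeR adjusted p = 9.26e-06). Tchh, encoding trichohyalin of the hair root sheath, rose 5.27-fold (edgeR adjusted p = 1.14e-05), and Evpl, encoding envoplakin, rose 3.36-fold. The transglutaminase gene Tgm3 fell 6.62-fold (edgeR adjusted p = 0.0019) and the lipid transporter gene Abca12 fell 4.6-fold. The list's median log2 fold change was -0.15, against -0.03 over all tested genes.

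Of 16 genes of the desmosome, the junction to which keratin filaments attach, 8 were tested, 1 rose and 3 fell. Dsc1, the desmocollin of the upper epidermis, rose 21.4-fold (2.94 ± 1.2 CPM in CTRL, 63.6 ± 13.3 in PTX, mean ± SD over 4 libraries, edgeR adjusted p = 2.88e-06), while Dsp fell 3.21-fold, Pkp2 1.6-fold and Pkp4 1.31-fold. Of the genes too low to test, the desmogleins Dsg1b and Dsg4 had 14 and 6 counts in CTRL and 76 and 38 in PTX, with groups that did not overlap for Dsg1b and did for Dsg4. The desmogleins Dsg1a and Dsg1c showed no such difference, with 8 and 7 counts in CTRL and 11 and 6 in PTX. Of 9 genes of the hemidesmosome and its laminin, which anchor epithelia to the basement membrane, 8 were tested and 2 rose, Lamb3 (7.82-fold) and Lama3 (2.18-fold). Cd151 did not pass (edgeR adjusted p = 0.069). With the replicate number as a block 4 of these rose and 1 fell. Of 16 general epithelial genes 3 were tested, and 1, the tight junction gene Ocln, fell 1.91-fold, while Sfn (edgeR adjusted p = 0.0613) and Cldn1 (0.4) did not pass. Epcam and Cdh1, defining genes of epithelia, had 10 and 4 counts in CTRL and 28 and 7 in PTX.

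Of 17 transcription regulators known from keratinocytes, 12 were tested, 6 rose (7 with the replicate block) and 2 fell, with a median log2 fold change of 0.39. Klf5 rose 3.98-fold (3.46 ± 0.502 CPM in CTRL, 13.98 ± 1.417 in PTX, mean ± SD over 4 libraries, edgeR adjusted p = 7.79e-06) and Grhl3, a grainyhead factor of the epidermal barrier, rose 9.37-fold (0.259 ± 0.0419 CPM in CTRL, 2.42 ± 0.532 in PTX, edgeR adjusted p = 2.41e-05). Klf4, Ehf, Cebpb and Hes1 were the other rises. Grhl1 fell 2.76-fold (edgeR adjusted p = 0.000398) and Cebpa fell too. Ovol1 had 0 counts.

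Of 13 S100 genes, which encode calcium-binding proteins and flank the Lce and Sprr genes on chromosome 3, 8 were tested and 2 rose. S100a3, known from the hair cuticle, rose 13.8-fold (0.484 ± 0.24 CPM in CTRL, 7.01 ± 2.46 in PTX, mean ± SD over 4 libraries, edgeR adjusted p = 5.14e-05) and S100a10 2.29-fold. S100a13 did not pass (edgeR adjusted p = 0.35), and with the replicate block 2 rose and 2 fell. S100a8 and S100a9, markers of inflamed epidermis, had 2 and 0 counts in CTRL and 4 and 0 in PTX. Of 57 keratin-associated protein genes, which build the hair matrix, 43 were silent and the other 14 summed to 12 counts in CTRL and 14 in PTX, so that 0 were tested.

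**Figure D4:**
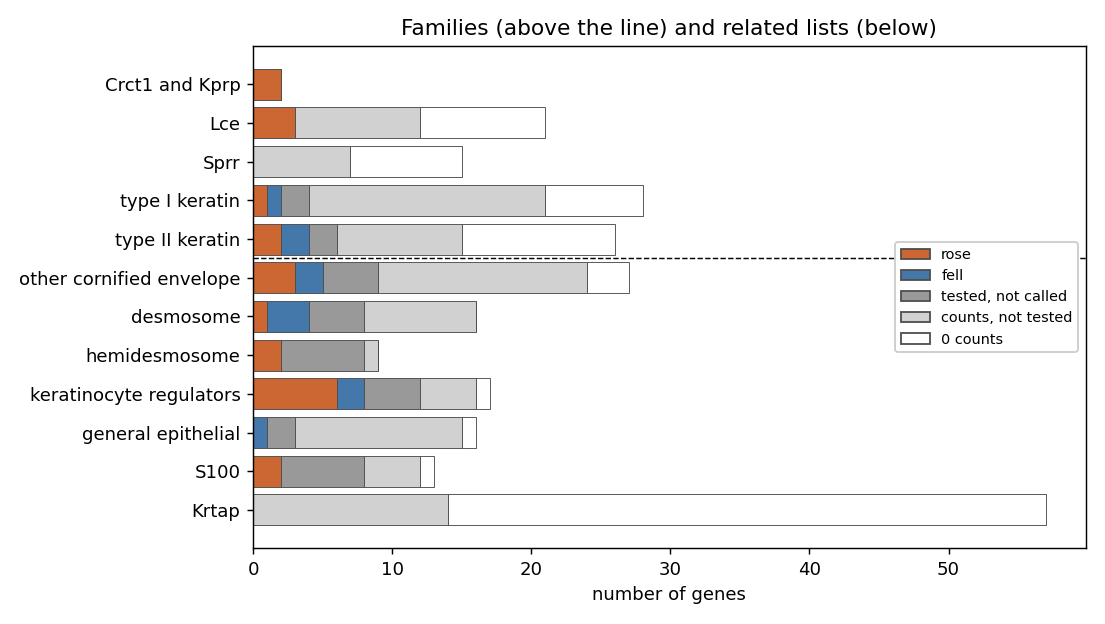
Number of genes that rose (orange), fell (blue), were tested and not called (dark grey), had counts too low to test (light grey) or had 0 counts (white), for the 5 families described here above the dashed line and 7 related lists below it. All tested Lce genes and both Crct1 and Kprp rose, but each of these passed the filter on low counts only through PTX. Of the Sprr genes 0 were tested, and the Krtap genes were mostly silent.

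The L3mbtl1 peak list was set against the same genes. Of the 92 genes, 0 had a peak within 2000 bp of either end, against 17.8% of 21889 protein-coding genes, these included. The spans from the first to the last of these genes on chromosomes 3, 11 and 15 held 0 of the 4677 peaks. The nearest peaks outside lay 424.3 kb from the span on chromosome 3, 84.9 kb on chromosome 11 and 63.9 kb on chromosome 15. The authors deposited 1 list for all ChIP-seq samples, so peaks that the list leaves out were not seen here.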

How the data were processed

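RNA-seq counts from 8 libraries were analysed. The authors deposited 1 table per library of raw counts, with genes named by Ensembl identifier. Per the labels' protocols, RNA was depleted of ribosomal RNA and made into ScriptSeq v2 libraries. The build is mm10, and the tools named in the submitters' processing notes are TopHat2 2.0.9, Bowtie2 2.2.4, HTSeq 0.6.1 and CASAVA 1.8. Neither the annotation release nor the strand setting is given in the sources used here. The 5 summary lines of each table, which hold reads outside genes (19.9% to 26.8%), ambiguous reads and reads at non-unique positions, stayed out of library sizes and tests. The authors deposited 1 peak list for the 6 ChIP-seq samples, with a score per peak that only served to rank peaks.

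PTX was compared with CTRL by edgeR 4.0.16 in R 4.3.3 (quasi-likelihood F test, TMM, filterByExpr, group as the only term), with Benjamini-Hochberg adjustment over all 15959 tested genes and a threshold of 0.05. CPM used TMM-scaled library sizes for every gene, also those not tested. Ratios and folds are of counts summed over the 4 libraries of a group and divided by the summed scaled library sizes, and SE is the log2 fold change divided by the root of F. Where CTRL had 0 counts, the bound uses a floor of 3 counts over the group. The fit was tested on simulated data. Nothing in the labels says that libraries came from separate animals, so p-values measure the spread between these libraries. Same-numbered libraries deviated together from their group means for numbers 1, 2 and 4 (correlation 0.77, 0.566 and 0.608 over tested genes). For number 3 the correlation was 0.153, below that of CTRL3 with PTX2 (0.207) or PTX4 (0.209). The numbers served as pairs only in the replicate block, a pairing that comes from the data and the titles. The main fit is unpaired.

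The genes and lists were chosen with earlier results of these data known. Called genes and those with at least 100 counts are given in every library, and of each list the 3 genes of smallest p among those tested were to be named. Other called genes and markers of a list were named after their values had been seen. The alternatives were RLE scaling, no scaling, no filter, a mean CPM of at least 1, DESeq2 1.42.0, the replicate block, leaving out each library and leaving out both libraries numbered 1. Positions are from RefSeq (GRCm38.p6, the assembly of mm10).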

Additional observations from a re-analysis of the deposited data

How the results depend on the processing

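The count of these genes that rose was 8, 7 to 10 over all alternatives that keep a filter on low counts, and 19 with no filter, which admits more genes to the test. Leaving out 1 library at a time gave 8 to 10 rises, 3 falls and 5119 to 6229 calls over all genes. The count that fell was 3 in every alternative but the fit without a filter (4). With the replicate block 8 rose and 3 fell, and 8820 genes were called in all against 6248, and it changed no call of the 15 tested genes. Over 218 fits of a single tested gene under an alternative, 201 kept direction and call, 6 lost the call (all Krt12) and 11 changed direction (Krt1, Krt8 and Krt18, none of them called). Leaving out 1 library at a time, the log2 fold change ranged from -0.38 to 1.07 for Krt18, from -0.72 to 1.48 for Krt8 and from -0.22 to 0.09 for Krt1. The cause was not tested. The peak count stayed 0 with windows of 1000 and 5000 bp and with the 2377 peaks of highest score. The main fit made no test for the 42 genes that had counts and did not pass the filter. Of these 31 had 1 to 10 counts over the 8 libraries, and the fit without a filter included all 42.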
